A study of Homo sapiens with 6 samples.

Results

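The genes described here encode 10 enzymes of prostaglandin metabolism: the phospholipases A2 PLA2G2A, PLA2G2F, PLA2G4A, PLA2G6, PLA2G10 and PLA2G15, the cyclooxygenases PTGS1 and PTGS2, the prostaglandin E synthase PTGES, and the prostaglandin-inactivating enzyme HPGD. They were picked by symbol with earlier results of the same comparison in view, and they are 10 of the 56638 gene symbols counted. RNA-seq was performed on HCT116 cells, an established human colorectal cancer line. The 6 samples were 3 WT (wild type) and 3 METTL3-KO samples, all labelled passage 16 to 19 and grown in the same medium. Groups and sample numbers follow the labels. The names of the count tables hold NC and SiM3 where the labels say wild type and knockout. They also hold other numbers for 2 of the WT samples. The labels explain neither difference, and what the abbreviations stand for was not tested. METTL3 is the catalytic subunit of the nuclear complex that writes N6-methyladenosine (m6A) on mRNA. By the study's methods the knockout was made with a lentiviral CRISPR-Cas9 vector and puromycin selection and is 1 monoclonal line, so the loss of METTL3, the selection and the particular clone cannot be told apart. Nothing in the labels says that the 3 samples of a group came from separate cultures, so p-values measure the spread between these samples, which may be technical.

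Prostaglandins are made in steps. A phospholipase A2 cuts a fatty acid, often arachidonic acid, from the sn-2 position of a membrane phospholipid; a cyclooxygenase turns arachidonic acid into prostaglandin H2; and a terminal synthase turns that intermediate into a given prostanoid, such as prostaglandin E2. The 15-hydroxyprostaglandin dehydrogenase encoded by HPGD oxidises prostaglandin E2 to an inactive product. In colorectal tumours PTGS2 is known as the inducible cyclooxygenase, and HPGD is often described as lost.

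Reads on genes numbered 20936091 to 30142144 per sample. METTL3 itself was counted 841, 682 and 623 times in WT cells and 219, 169 and 162 times in METTL3-KO cells. All 3 METTL3-KO samples were below all 3 WT samples, yet METTL3 reads were not absent. The study describes an insertion at the cut site that creates a premature stop, with the knockout checked by Western blot. What these remaining reads encode was not tested. METTL3 had a log2 fold change of -2.04 (SE 0.0906, edgeR quasi-likelihood test, Benjamini-Hochberg adjusted p = 1.58544e-07). All 6 epithelial markers were detected, each with at least 13543 counts over the samples. Their summed level was 5598 to 6991 CPM (gene counts scaled to a common library size, per 1e6 reads) in WT and 7922 to 8907 CPM in METTL3-KO cells. The markers did not move together. KRT19 (log2 fold change 0.82), KRT8 (0.36) and CDH1 (0.23) were higher at an adjusted p under 0.05 (edgeR). KRT18 (0.18), EPCAM (0.01) and CLDN7 (-0.02) did not pass. None of the 4 leukocyte markers reached 10 counts, while 1 of 4 fibroblast markers (COL1A1, 915 counts) and 1 of 3 endothelial markers (VWF, 13 counts) did, with COL1A2 and PECAM1 at 0. The third sample of each group stood apart from the other two: read pairs on no annotated gene were 10.5% in WT sample 3 and 6.97% in METTL3-KO sample 3, against 7.99% to 8.20% in the other 4 samples, and calls that change with both of these samples left out are given with each list. In these bulk samples fewer expressing cells and less RNA per cell cannot be told apart.

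In METTL3-KO cells the secreted phospholipase PLA2G2F was 11.5-fold above WT, the cyclooxygenases PTGS1 and PTGS2 were 1.81-fold and 1.64-fold above, and HPGD was 1.53-fold above. The cytosolic phospholipase PLA2G4A was 1.67-fold below WT. PLA2G2A, PLA2G6, PLA2G10, PLA2G15 and PTGES did not pass an adjusted p under 0.05. Thus 4 of the 10 genes were higher, 1 was lower and 5 did not pass, where 13.3% of the 22452 genes tested were higher and 13.2% were lower. The 3 METTL3-KO values lay all above or all below the 3 WT values for 7 of the 10 genes, 6 above and 1 below, against 40.9% of all tested genes (20.2% above and 20.7% below). The median log2 fold change of the 10 genes was 0.65 and that of all tested genes was -0.02. Because the genes were chosen with this comparison known, these counts and the median are a description and carry no test.

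**Figure D1:**
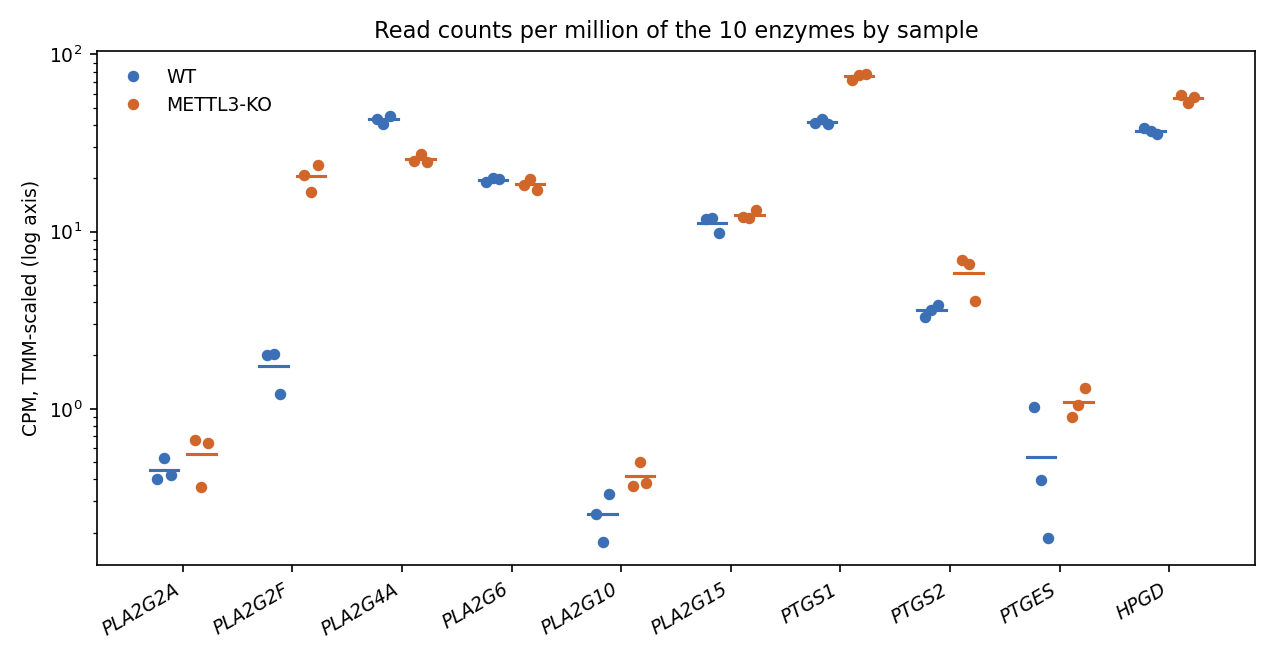
Level of each of the 10 enzymes in CPM, scaled by TMM (trimmed mean of M values), in the 3 WT and 3 METTL3-KO samples, on a log axis. Each point is 1 sample and each short line is the group mean; the points of PLA2G2F, PLA2G4A, PTGS1 and HPGD form 2 separate groups, while those of PLA2G2A, PLA2G6 and PTGES overlap.

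The stretches of DNA just upstream of the start sites of the 5 enzymes that passed, and of UBXN10, the expressed gene next to PLA2G2F described further on, are shown so that their differences in base composition and motifs can be read beside the expression values. They are RefSeq sequences of GRCh38.p14, 250 bases before the start, written from 5′ to 3′ on the strand of the gene. Capitals mark matches on either strand to the TATA box TATAAA, the GC box GGGCGG, the CCAAT box CCAAT, the AP-1 motif TGANTCA or the E-box CACGTG. The final CC of the PTGS2 stretch is the beginning of a CCAAT that runs past the start.
PLA2G2F, chr1:20139073-20139322, plus strand: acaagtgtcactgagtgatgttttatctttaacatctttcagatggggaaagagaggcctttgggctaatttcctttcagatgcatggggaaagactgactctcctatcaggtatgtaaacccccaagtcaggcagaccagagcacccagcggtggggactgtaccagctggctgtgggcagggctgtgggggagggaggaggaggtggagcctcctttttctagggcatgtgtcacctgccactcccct
UBXN10, chr1:20185846-20186095, plus strand: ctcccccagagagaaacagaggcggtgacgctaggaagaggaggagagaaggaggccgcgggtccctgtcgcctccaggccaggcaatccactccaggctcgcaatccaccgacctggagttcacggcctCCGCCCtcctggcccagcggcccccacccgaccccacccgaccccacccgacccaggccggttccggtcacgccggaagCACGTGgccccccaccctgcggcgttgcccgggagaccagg
PLA2G4A, chr1:186828699-186828948, plus strand: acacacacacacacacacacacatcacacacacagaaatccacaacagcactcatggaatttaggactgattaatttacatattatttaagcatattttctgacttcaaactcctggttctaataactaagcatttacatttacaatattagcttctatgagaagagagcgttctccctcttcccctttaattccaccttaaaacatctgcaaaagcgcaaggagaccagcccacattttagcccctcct
PTGS1 first start, chr9:122370283-122370532, plus strand: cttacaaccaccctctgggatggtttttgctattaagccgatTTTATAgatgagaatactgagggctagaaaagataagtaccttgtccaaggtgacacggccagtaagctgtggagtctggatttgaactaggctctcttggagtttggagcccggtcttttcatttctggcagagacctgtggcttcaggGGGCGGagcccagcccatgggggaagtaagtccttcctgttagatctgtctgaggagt
PTGS1 second start, chr9:122375052-122375301, plus strand: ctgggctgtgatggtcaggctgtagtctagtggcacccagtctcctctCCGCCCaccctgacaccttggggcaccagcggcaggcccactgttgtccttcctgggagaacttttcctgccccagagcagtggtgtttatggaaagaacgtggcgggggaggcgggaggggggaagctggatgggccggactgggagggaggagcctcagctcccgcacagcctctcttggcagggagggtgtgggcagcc
PTGS2, chr1:186680424-186680673, minus strand: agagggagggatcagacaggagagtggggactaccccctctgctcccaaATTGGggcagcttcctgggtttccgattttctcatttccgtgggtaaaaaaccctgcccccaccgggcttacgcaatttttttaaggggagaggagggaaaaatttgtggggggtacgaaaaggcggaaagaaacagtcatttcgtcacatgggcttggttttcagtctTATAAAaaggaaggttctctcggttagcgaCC
HPGD first start, chr4:174522489-174522738, minus strand: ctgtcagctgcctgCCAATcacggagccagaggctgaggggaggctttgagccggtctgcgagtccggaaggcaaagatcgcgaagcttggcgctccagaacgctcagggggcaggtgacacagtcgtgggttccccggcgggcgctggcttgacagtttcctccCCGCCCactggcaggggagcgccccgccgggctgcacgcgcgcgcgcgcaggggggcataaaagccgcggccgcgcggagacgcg
HPGD second start, chr4:174522894-174523143, minus strand: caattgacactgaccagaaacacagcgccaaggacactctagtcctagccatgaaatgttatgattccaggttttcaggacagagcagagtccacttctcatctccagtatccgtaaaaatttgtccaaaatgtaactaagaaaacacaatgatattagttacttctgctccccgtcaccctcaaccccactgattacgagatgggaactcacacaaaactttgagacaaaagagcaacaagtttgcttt

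All 10 enzymes had at least 1 RefSeq window, 14 windows in all. The search covered 300 bases, 250 before and 50 after the start, in which TATAAA occurred in 11.5%, GGGCGG in 45%, CCAAT in 34.6%, TGANTCA in 7.71% and CACGTG in 7.26% of all 35116 RefSeq windows. The PLA2G2F and PLA2G4A windows, the second HPGD window and the second PLA2G2A window (not shown) held none of the 5 motifs. Beyond the bases shown, the first HPGD window held GGGCGG on the opposite strand 11 and 15 bases after the start. It also held CACGTG 40 bases after the start. The PTGS2 window held TATAAA 32 bases before the start, while TATAAA in the first PTGS1 window was on the opposite strand, 208 bases before. The UBXN10 window held GGGCGG 120 bases before the start on the opposite strand and CACGTG 41 bases before. The bases shown were 53.6% G or C for PLA2G2F, 38.8% for PLA2G4A, 70.8% and 42% for the 2 HPGD windows and 71.6% for UBXN10, where the median of all windows was 58%. A match is a description of letters and was not tested as a site.

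PLA2G2F, on chromosome 1 at 20465816 to 20476874 (GRCh37, plus strand), encodes a secreted phospholipase A2 best known from skin. The WT samples held 55, 46 and 26 PLA2G2F reads, and the METTL3-KO samples held 628, 370 and 560. Scaled to library size these were 2.003, 2.03 and 1.22 CPM in WT and 20.8, 16.8 and 23.8 CPM in METTL3-KO cells. Every METTL3-KO sample was far above every WT sample, and WT sample 3 was the lowest of the 6. The means were 1.75 ± 0.462 CPM and 20.5 ± 3.50 CPM (SD, n = 3 each), and the log2 fold change was 3.53 (SE 0.185). It stayed between 3.23 and 3.65 over all 15 other ways of processing, and was 3.23 with the third sample of each group left out.

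The locus holds several other phospholipase A2 genes of the secreted group II type. Within 200 kb of PLA2G2F lie 7 further genes that both the annotation used here and the count tables name. Of these, PLA2G5, PLA2G2D and RN7SL304P had 0 counts in all 6 samples, which does not show that they were absent. PLA2G2C, whose annotated span begins 10.9 kb away, had 2 counts over all samples, both in METTL3-KO cells, and VWA5B1, 140 kb away, also had 2. PLA2G2A, 159 kb away, was detected at a low level that is described with the other phospholipases. UBXN10, 35.7 kb away and encoding a UBX-domain protein of cilia, had 156, 135 and 104 counts in WT and 425, 320 and 323 in METTL3-KO cells. All 3 METTL3-KO values of UBXN10 were above the WT values, at 14.1 ± 0.413 CPM against 5.51 ± 0.568 CPM (SD, n = 3 each). UBXN10 rose by a log2 fold change of 1.35 (SE 0.110, edgeR, Benjamini-Hochberg adjusted p = 6.78355e-06), and passed in all 15 alternatives, at 1.28 to 1.42. The span of PLA2G2C overlaps the start of UBXN10 in the annotation used here, and the counting leaves out reads that lie on exons of more than 1 gene.

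**Figure D2:**
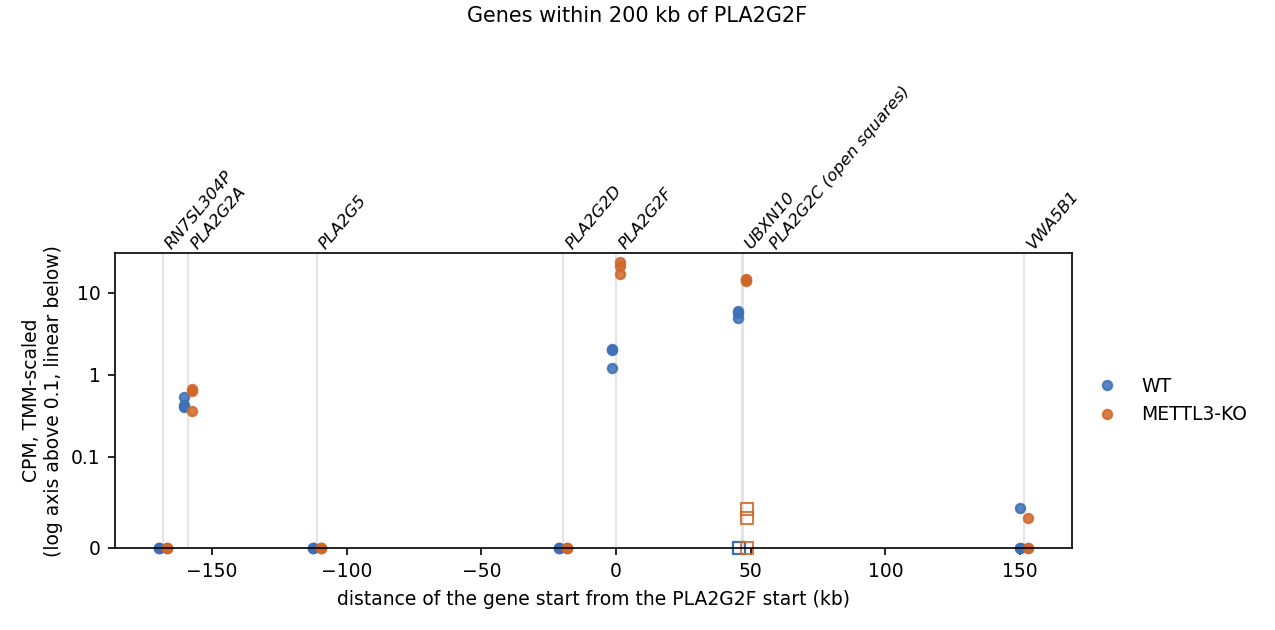
CPM of PLA2G2F and of each gene within 200 kb that the annotation and the count tables both name, placed by the distance of its start from the PLA2G2F start in kb, with the axis logarithmic above 0.1 CPM and linear below. Each point is 1 of 3 WT or 3 METTL3-KO samples; PLA2G2F and UBXN10 are higher in all METTL3-KO samples, and PLA2G5 and PLA2G2D lie at 0.

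PLA2G4A, on chromosome 1 at 186798081 to 186958113 (GRCh37, plus strand), encodes cytosolic phospholipase A2 alpha, the calcium-dependent enzyme that prefers arachidonic acid at the sn-2 position. It had 1189, 914 and 962 counts in WT and 750, 605 and 583 counts in METTL3-KO samples. In CPM it was 43.3, 40.4 and 45.1 in WT and 24.9, 27.5 and 24.8 in METTL3-KO samples. The groups did not overlap, and the highest METTL3-KO sample was well below the lowest WT sample. The means were 42.9 ± 2.36 CPM in WT and 25.7 ± 1.55 CPM in METTL3-KO cells (SD, n = 3 each), a log2 fold change of -0.74 (SE 0.0831). PLA2G4A was the one enzyme of the 10 that passed in the lower direction, at -0.79 to -0.69 over the 15 alternatives.

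PLA2G2A, the secreted group IIA enzyme on the same chromosome (20301924 to 20306909, minus strand), had 11, 12 and 9 counts in WT and 20, 8 and 15 in METTL3-KO samples. The groups overlapped, with a log2 fold change of 0.32 (SE 0.364) that did not pass. PLA2G10, a secreted group X enzyme with high activity on phosphatidylcholine (chromosome 16, 14766405 to 14788165, minus strand), had 7, 4 and 7 counts in WT and 11, 11 and 9 in METTL3-KO samples. All 3 METTL3-KO counts were above the WT counts, but so few reads left the log2 fold change at 0.70 with an SE of 0.429, and it did not pass. With so few reads, a difference in either of these genes stays undecided.

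PLA2G6, the calcium-independent phospholipase A2 beta (chromosome 22, 38507502 to 38610785, minus strand), was 19.0, 20.1 and 19.7 CPM in WT and 18.3, 19.9 and 17.3 CPM in METTL3-KO samples. The values overlapped, with a log2 fold change of -0.09 (SE 0.0888), and 22.8% of its exon bases are shared with other annotated genes, MAFF among them, where reads can be lost in counting. PLA2G15, the lysosomal phospholipase A2 (chromosome 16, 68279207 to 68294961, plus strand), was 11.8, 11.9 and 9.80 CPM in WT and 12.1, 11.9 and 13.3 CPM in METTL3-KO samples. Its METTL3-KO values lay just above the WT values, the gap between the nearest samples was far smaller than the spread, and the log2 fold change was 0.15 (SE 0.108), or 0.02 without the third sample of each group. Neither gene passed, which does not show that their levels were the same.

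Of the 18 other phospholipase A2 genes, 11 were tested, and 2 were higher, 1 was lower and 8 did not pass, with a median log2 fold change of -0.05. PLA2G12A, a secreted enzyme of group XII, rose from 30.2 ± 2.19 to 39.3 ± 1.38 CPM, with a log2 fold change of 0.38 (SE 0.0824, edgeR, adjusted p = 0.00471). PAFAH2, which hydrolyses platelet-activating factor and oxidised phospholipids, rose from 30.9 ± 0.243 to 45.6 ± 1.91 CPM (log2 fold change 0.56, SE 0.0749, edgeR, adjusted p = 0.000199). PLA2G16, an adipose-rich phospholipase also known as a tumour suppressor candidate, fell from 319 ± 8.39 to 232 ± 9.01 CPM (log2 fold change -0.46, SE 0.0672, edgeR, adjusted p = 0.000364). The mitochondrial and peroxisomal PNPLA8, at a log2 fold change of 0.17, and PRDX6, a peroxiredoxin with phospholipase activity, at -0.05, did not pass. With the third sample of each group left out, which leaves 2 samples a group, both passed, PNPLA8 at 0.20 (edgeR, adjusted p = 0.00278) and PRDX6 at -0.18 (edgeR, adjusted p = 0.000632), and 3 of the other phospholipases were then higher and 2 lower. Of the 7 genes not tested, PLA2G5, PLA2G2D and PLA2G3 had 0 counts, and none had more than 4 in total.

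Divided by exon length, which allows levels of different genes to be set side by side, the 4 secreted enzymes measured (PLA2G2A, PLA2G2F, PLA2G10 and PLA2G12A) changed in their shares. PLA2G2F made up 4.95%, 4.77% and 2.66% of their summed CPM per kb in WT cells, but 27.6%, 24.3% and 29.9% in METTL3-KO cells. PLA2G12A made up 86.7% ± 0.912 in WT and 65.0% ± 2.31 in METTL3-KO cells (SD, n = 3 each). PLA2G12A therefore stayed the most abundant of the 4 per length in both groups, and PLA2G2F passed from about the level of PLA2G2A and PLA2G10 to the second place.

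PTGS1, on chromosome 9 at 125132809 to 125157982 (GRCh37, plus strand), encodes cyclooxygenase-1, usually described as the constitutive form. Its counts were 1126, 971 and 867 in WT and 2157, 1679 and 1820 in METTL3-KO samples. In CPM it was 41.0, 43.0 and 40.7 in WT and 71.5, 76.4 and 77.4 in METTL3-KO samples. The 2 groups were far apart and the samples within each were close. The means were 41.5 ± 1.24 CPM and 75.1 ± 3.12 CPM (SD, n = 3 each), with a log2 fold change of 0.85 (SE 0.0734) and a range of 0.81 to 0.89 over the 15 alternatives.

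PTGS2, on chromosome 1 at 186640923 to 186650054 (GRCh37, minus strand), encodes the inducible cyclooxygenase-2. It had 91, 82 and 82 counts in WT and 208, 144 and 96 counts in METTL3-KO samples. Scaled to library size it was 3.31, 3.63 and 3.84 CPM in WT and 6.90, 6.55 and 4.08 CPM in METTL3-KO samples. METTL3-KO sample 3 lay only just above the highest WT sample, while the other two were well above. The means were 3.60 ± 0.267 CPM and 5.84 ± 1.54 CPM (SD, n = 3 each), with a log2 fold change of 0.71 (SE 0.190). The call depended on single samples: PTGS2 no longer passed without WT sample 1 (0.65), without METTL3-KO sample 1 (0.57) or without METTL3-KO sample 2 (0.63), and passed at 0.96 with the third sample of each group left out. Of its exon bases, 3.99% are shared with the antisense RNA gene PACERR, and the labels do not say that strand was used in counting.

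Per kb of exon, PTGS1 was the main cyclooxygenase in both groups. It made up 92.1%, 91.8% and 90.9% of the summed CPM per kb of PTGS1 and PTGS2 in WT cells, against 90.8%, 91.7% and 94.7% in METTL3-KO cells. The 2 sets of shares overlapped, and METTL3-KO sample 3 had the highest. PTGS2 and PLA2G4A lie on chromosome 1 with 148 kb and no protein-coding gene between them, and in METTL3-KO cells the first was above and the second below WT.

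PTGES, on chromosome 9 at 132500610 to 132515321 (GRCh37, minus strand), encodes the microsomal prostaglandin E synthase-1, the inducible terminal synthase. It had 28, 9 and 4 counts in WT and 27, 23 and 31 in METTL3-KO samples. In CPM it was 1.02, 0.398 and 0.188 in WT and 0.896, 1.05 and 1.32 in METTL3-KO samples. WT sample 1 was as high as the METTL3-KO samples and the other WT samples were lower, so the groups overlapped. The log2 fold change was 0.93 with an SE of 0.440 and did not pass, but it was 1.85 and passed without WT sample 1, and 0.38 and did not pass without the third sample of each group.

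The 2 other prostaglandin E synthases were far more abundant. PTGES2, the membrane-associated synthase mPGES-2, was 149, 141 and 124 CPM in WT and 100, 95.3 and 107 CPM in METTL3-KO samples, and fell with a log2 fold change of -0.45 (SE 0.0846, edgeR, adjusted p = 0.00186). PTGES3, the cytosolic synthase that is also the HSP90 co-chaperone p23, was 276, 259 and 252 CPM in WT and 157, 160 and 174 CPM in METTL3-KO samples, and fell with a log2 fold change of -0.68 (SE 0.0729, edgeR, adjusted p = 4.29836e-05). For both genes every METTL3-KO sample was below every WT sample, and both passed in all 15 alternatives. PTGES3 has processed pseudogenes, so some of its reads may have been lost or split in counting. Per kb of exon, PTGES3 made up 77.1% ± 1.09 of the 3 synthases in WT and 73.7% ± 0.597 in METTL3-KO cells, while PTGES made up 0.274% ± 0.208 and 0.876% ± 0.128 (SD, n = 3 each).

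Of the 10 prostanoid synthase genes other than PTGS1, PTGS2 and PTGES, 8 were tested, 0 were higher in edgeR, at an unadjusted p under 0.05 or in DESeq2, and PTGES2 and PTGES3 were the 2 that were lower, with a median log2 fold change of 0.01. TBXAS1, the thromboxane synthase, had a log2 fold change of -0.11, and AKR1C3, a prostaglandin F synthase, one of 0.13; neither passed. FAM213B, a prostamide/prostaglandin F synthase named after its values were seen, was at -0.20 and did not pass, but passed with the third sample of each group left out (-0.30, edgeR, adjusted p = 4.43491e-07) and without WT sample 3 alone (-0.27, edgeR, adjusted p = 0.00254). AKR1B1, which also makes prostaglandin F2 alpha, had 2, 0 and 3 counts in WT and 9, 1 and 3 in METTL3-KO samples. DESeq2 gave AKR1B1 no adjusted p, so the 0 in DESeq2 does not cover it. PTGIS, the prostacyclin synthase, had 6 counts in all and was not tested.

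HPGD, on chromosome 4 at 175411326 to 175444305 (GRCh37, minus strand), had 1053, 833 and 763 counts in WT and 1770, 1170 and 1356 counts in METTL3-KO samples. In CPM it was 38.4, 36.8 and 35.8 in WT and 58.7, 53.2 and 57.7 in METTL3-KO samples. All METTL3-KO samples were above all WT samples, with little spread in either group. The means were 37.0 ± 1.30 CPM and 56.5 ± 2.91 CPM (SD, n = 3 each), with a log2 fold change of 0.61 (SE 0.0765) and a range of 0.57 to 0.66 over the 15 alternatives.

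Of the 5 other genes of prostanoid breakdown and transport, 4 were tested and 1 was lower. ABCC4, an exporter that carries prostaglandins out of the cell, was 125, 124 and 144 CPM in WT and 76.2, 70.4 and 71.0 CPM in METTL3-KO samples. The groups did not overlap, and ABCC4 fell with a log2 fold change of -0.85 (SE 0.0807, edgeR, adjusted p = 1.80232e-05), in all 15 alternatives. PTGR1, a prostaglandin reductase that acts after HPGD, had a log2 fold change of -0.11 and did not pass, but was -0.24 and passed with the third sample of each group left out (edgeR, adjusted p = 1.65307e-05). SLCO2A1, the importer that brings prostaglandins to HPGD, had 0 counts in all samples.

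Prostanoid receptor transcripts were scarce. Of the 9 receptor genes 5 were tested, and 0 passed in edgeR and 0 in DESeq2, with a median log2 fold change of -0.11. PTGDR2, a prostaglandin D2 receptor named after its values were seen, had an unadjusted p under 0.05, with 4, 4 and 6 counts in WT and 11, 11 and 14 in METTL3-KO samples (log2 fold change 1.26, edgeR, adjusted p = 0.0597). PTGER2, a prostaglandin E2 receptor, had 1, 2 and 0 counts in WT and 4, 1 and 1 in METTL3-KO samples. PTGER4, another, had 4, 3 and 8 counts in WT and 8, 4 and 3 in METTL3-KO samples. PTGDR2 passed without WT sample 3 (1.56, edgeR, adjusted p = 0.0345). PTGIR, the prostacyclin receptor, named after its values were seen, was at -0.86 and did not pass, but passed with the third sample of each group left out (-1.35, edgeR, adjusted p = 0.0263). For PTGER2 and PTGER4 so few counts leave a difference undecided. DESeq2 gave no adjusted p for PTGER2 or PTGER4, so its 0 does not cover them.

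**Figure D3:**
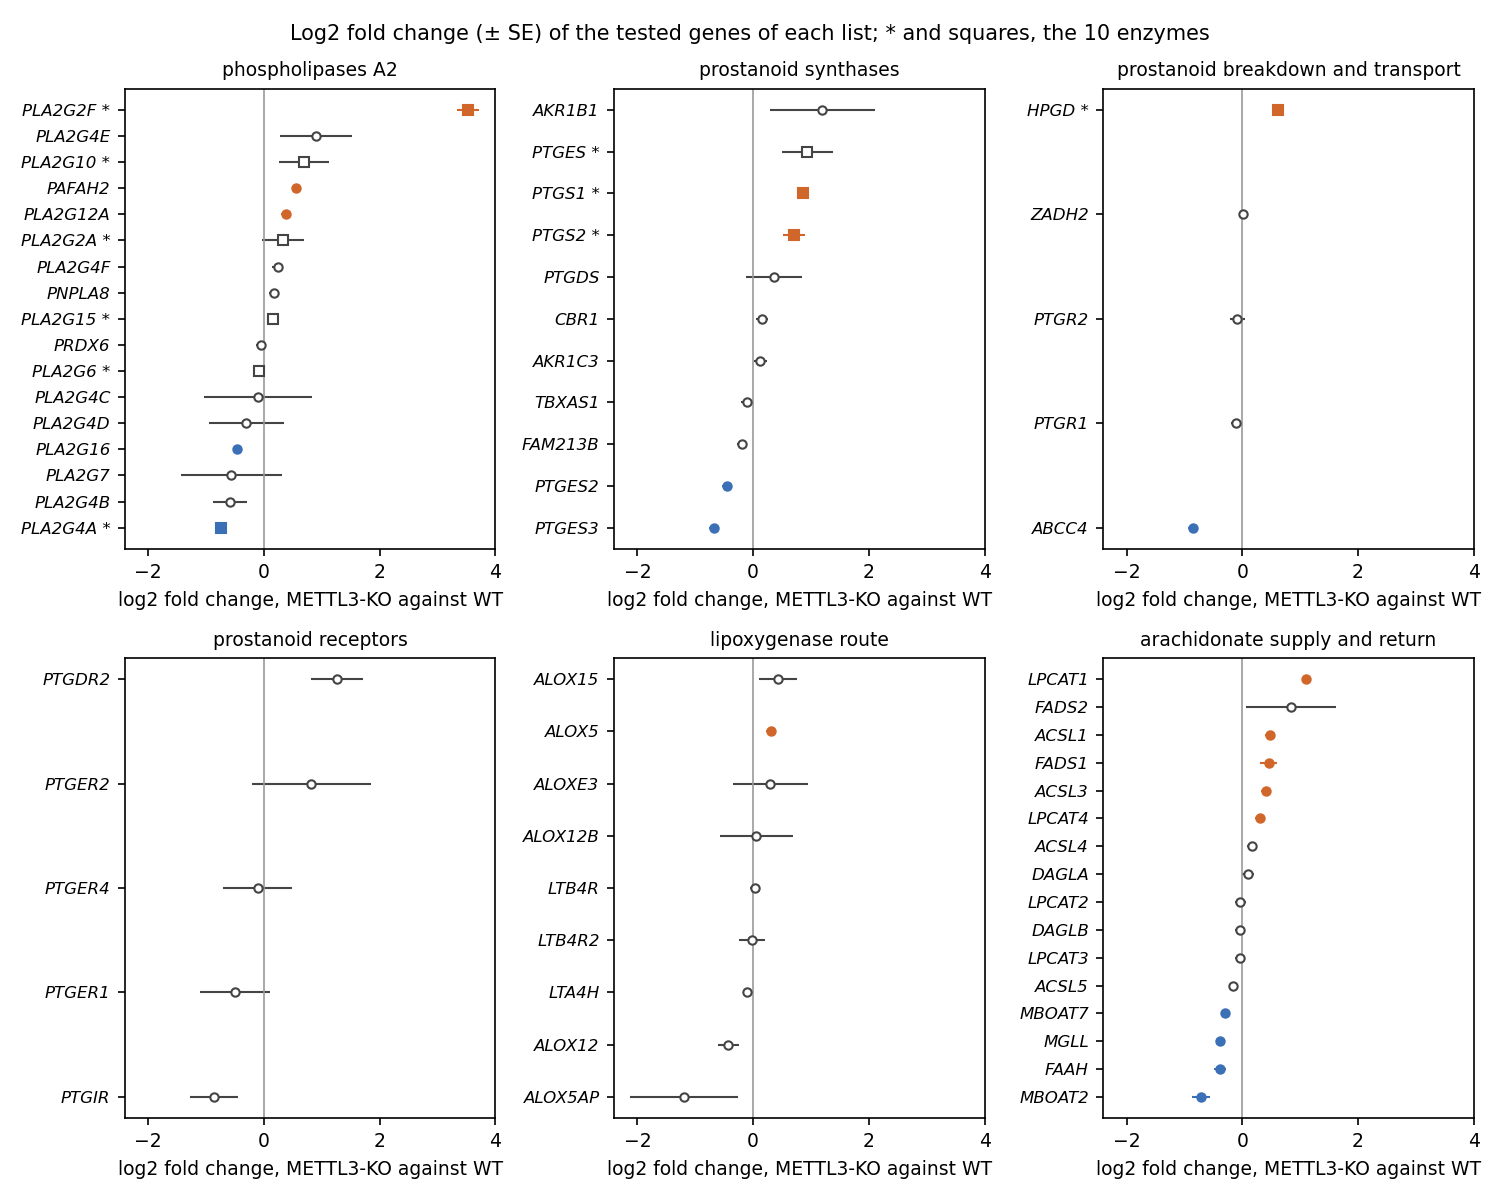
Log2 fold change, METTL3-KO against WT, of every tested gene in the 6 lists of the pathway, 1 point per gene with a bar of 1 SE to each side. Squares are the 10 enzymes; filled orange and blue points are genes higher or lower at an adjusted p under 0.05 (edgeR), and open points did not pass. PLA2G2F stands far to the right, and genes that passed lie on both sides of 0 in the phospholipase, synthase, breakdown and supply lists.

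The lipoxygenase route, which turns arachidonic acid into leukotrienes and related acids, had 13 genes, of which 9 were tested and 1 was higher. ALOX5, the 5-lipoxygenase, rose from 28.7 ± 1.54 to 35.4 ± 0.871 CPM, with a log2 fold change of 0.31 (SE 0.0788, edgeR, adjusted p = 0.0131), but did not pass without WT sample 1 (edgeR, adjusted p = 0.0585). ALOX5AP, the protein that presents arachidonic acid to ALOX5, had 3, 1 and 5 counts in WT and 2, 0 and 2 in METTL3-KO samples. ALOX15 had 16, 16 and 12 counts in WT and 21, 14 and 28 in METTL3-KO samples and did not pass. LTA4H, the leukotriene A4 hydrolase, had a log2 fold change of -0.11 and did not pass, but was -0.19 and passed with the third sample of each group left out (edgeR, adjusted p = 0.000489).

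Of 19 genes that supply arachidonic acid or return it to phospholipids, 16 were tested, and 5 were higher, 4 were lower and 7 did not pass, with a median log2 fold change of 0.03. Of all tested genes, 13.3% were higher and 13.2% were lower. LPCAT1, a lysophosphatidylcholine acyltransferase known for saturated chains in lung surfactant, was 81.7, 79.5 and 77.4 CPM in WT and 169, 175 and 164 CPM in METTL3-KO samples. Its METTL3-KO samples were all far above WT, and LPCAT1 rose 2.13-fold (log2 fold change 1.09, SE 0.0691, edgeR, adjusted p = 1.30744e-06). MBOAT2, another lysophospholipid acyltransferase, fell from 4.53 ± 0.370 to 2.78 ± 0.384 CPM (log2 fold change -0.71, SE 0.155, edgeR, adjusted p = 0.00491). The acyl-CoA synthetases ACSL1, at a log2 fold change of 0.47 (SE 0.0821, edgeR, adjusted p = 0.00114), and ACSL3, at 0.41 (SE 0.0767, edgeR, adjusted p = 0.00203), were higher. ACSL4, the synthetase that prefers arachidonic acid, had a log2 fold change of 0.18 and did not pass, but passed with the third sample of each group left out, at 0.29. ACSL5, an acyl-CoA synthetase named after its values were seen, was at -0.16 and did not pass, but passed in the same setting (-0.15, edgeR, adjusted p = 0.00133).

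FADS1, the delta-5 desaturase that completes arachidonic acid, rose with a log2 fold change of 0.46 (SE 0.152, edgeR, adjusted p = 0.0440), and did not pass when any of WT samples 1 to 3 or METTL3-KO samples 1 and 2 was left out, with values of 0.35 to 0.51. MBOAT7, which returns arachidonic acid to phosphatidylinositol, fell with a log2 fold change of -0.30 (SE 0.0735, edgeR, adjusted p = 0.00970), and did not pass without METTL3-KO sample 1 (-0.28) or sample 2 (-0.27). LPCAT3, which puts arachidonic acid on phosphatidylcholine, had a log2 fold change of -0.04 and did not pass. FADS2 had at most 10 counts in a sample and did not pass.

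Over all 6 lists without the 10 enzymes, 74 genes were named and 53 were tested, of which 8 were higher and 8 were lower, with a median log2 fold change of -0.03. Those pooled shares lie near the 13.3% and 13.2% of all tested genes. The single lists differed, with 5 higher and 4 lower of 16 in the supply list and 0 of 5 in the receptor list. That difference was not tested. The 21 genes not tested had at most 6 counts each over the 6 samples, and a low count can also belong to a gene whose reads lie where genes overlap.

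Ordered by CPM per kb of exon, the enzymes of WT cells began with PLA2G4A at 14.9 ± 0.819, PTGS1 at 7.18 ± 0.214 and HPGD at 6.69 ± 0.234 (SD, n = 3 each), with no overlap between neighbours. PLA2G15 at 2.50 ± 0.265 and PLA2G6 at 2.41 ± 0.0666 came next and overlapped, followed by PTGS2 at 0.656 ± 0.0486. PLA2G10, PTGES, PLA2G2A and PLA2G2F closed the order at 0.272 to 0.337, and each overlapped the next. In METTL3-KO cells the order began with PTGS1 at 13.0 ± 0.540, then HPGD at 10.2 ± 0.526 and PLA2G4A at 8.94 ± 0.540. PLA2G2F followed at 3.18 ± 0.544, overlapping PLA2G15 at 2.79, so it held rank 10 in WT and rank 4 in METTL3-KO cells. With the length of the longest transcript in place of all exons, an option chosen after the data were seen, HPGD stood above PTGS1 in both groups, at 12.7 against 8.27 in WT. PLA2G2F then held rank 7 in WT, at 0.424 ± 0.112, and rank 5 in METTL3-KO cells, at 4.96 against 5.60 for PLA2G6. With this length PLA2G6 also stood above PLA2G15 without overlap, at 5.95 against 3.58 in WT and 5.60 against 3.99 in METTL3-KO cells. The order of PLA2G6 and PLA2G15 therefore depends on the length used. PLA2G4A came first in WT and after PTGS1 and HPGD in METTL3-KO cells with either length.

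**Figure D4:**
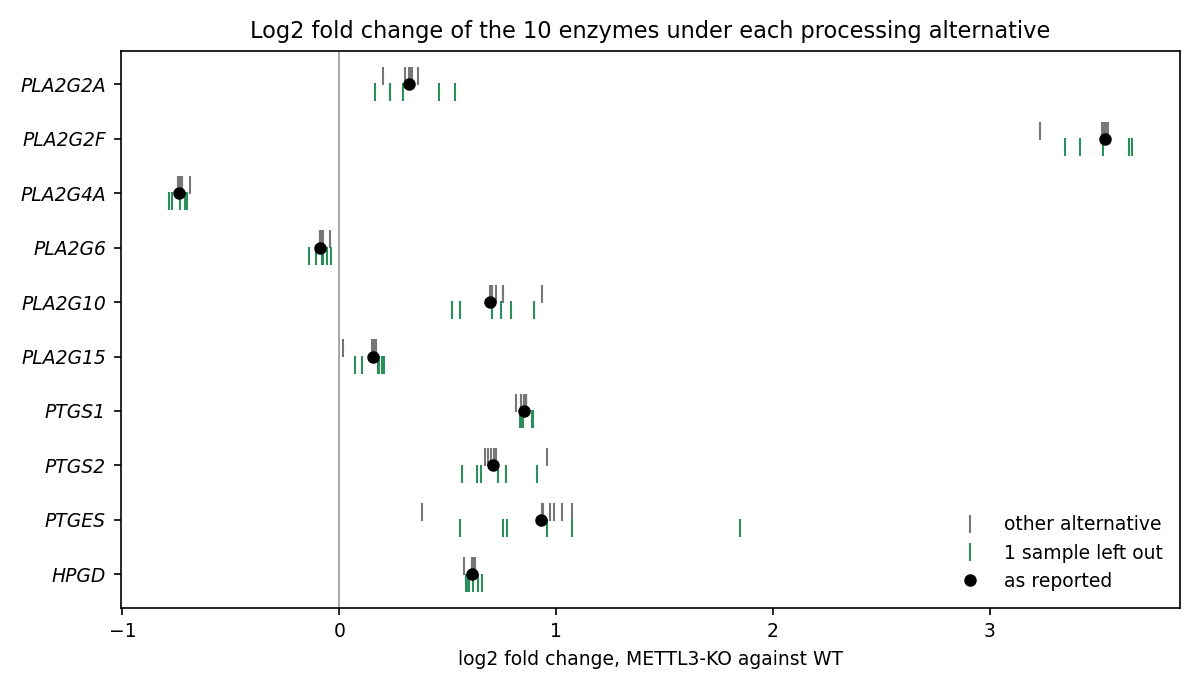
Log2 fold change of each enzyme, METTL3-KO against WT, as reported (black dots) and under the alternatives in processing (grey ticks) or with 1 sample left out (green ticks). The ticks of PLA2G2F, PLA2G4A, PTGS1 and HPGD stay close to their dots, and those of PTGES spread from 0.38 to 1.85.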

How the data were processed

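The 10 enzymes, the 6 pathway lists and the marker lists were chosen with earlier results of these data known. Per the labels and the study's methods, RNA was made into libraries with an Illumina TruSeq kit, and the authors mapped reads with TopHat2 2.0.11 to hg19/GRCh37 and counted them per gene with HTSeq. The deposited tables give unnormalized read counts for 56638 gene symbols in each of the 6 samples, and reads on more than 1 gene had been left out. A strand setting is not given in the sources used here.

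From these counts, genes with fewer than 5 counts in both groups were removed, as in the study, leaving 22452. METTL3-KO was compared with WT in all 6 samples by edgeR's two-sided quasi-likelihood test (edgeR 4.0.16, R 4.3.3) with TMM normalization and Benjamini-Hochberg adjustment over all tested genes, and a gene passed at an adjusted p under 0.05. SEs of log2 fold changes were derived as |log2 fold change|/√F. The procedure was run on simulated counts in which only well-counted genes were changed and no sample stood apart. That run does not cover genes with few reads or the third samples that stood apart here. CPM used TMM-scaled library sizes; CPM per kb used the union of exons in GENCODE v44lift37 (GRCh37), which matched 35694 symbols and all 84 list genes. Positions, exon overlaps and genes within 200 kb came from this annotation, which may differ from the one used for counting, and promoter sequences from RefSeq on GRCh38.p14. For PLA2G2F, PLA2G4A, PTGS1 and PTGES, the 3 genes (mean log2 CPM no lower than 1) with the highest Pearson correlation of log2 CPM (prior count 2) over the samples were named. In each list the text named at most 5 genes that passed, by size of change, and a few steps of the pathway whatever their values. Alternatives were DESeq2 1.42.0, other scalings and filters, a replicate block, a length correction (a natural spline with 5 degrees of freedom), and leaving out samples. Protein sequences were not analysed here.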

Additional observations from a re-analysis of the deposited data

How the results depend on the processing

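Of the 10 enzymes, PLA2G2F, PLA2G4A, PTGS1 and HPGD passed in all 15 alternatives, and no enzyme changed direction in any alternative that tested it. With the replicate number as a block, PTGS2 no longer passed (0.69). In the pathway lists 5 genes were then higher in place of 8, and 6 were lower in place of 8. Over all genes 1810 were higher and 1719 lower in place of 2986 and 2959. The calls lost in the lists included those of ALOX5, MBOAT7 and FADS1 (edgeR, adjusted p = 0.0782, 0.0848 and 0.106). The numbers do not pair the samples: deviations of same-numbered samples from their group means correlated at -0.586, -0.390 and -0.784 over 10336 genes, and no sample correlated best with its own number. With only samples 1 and 2 of each group, 14 genes of the pathway lists were lower in place of 8, 4555 genes were higher and 4823 lower over all genes, and AKR1C3 (-0.041), LPCAT3 (0.0306) and PTGER4 (0.69) changed direction, none of them past the threshold. With 1 sample left out at a time, LPCAT3 ran from -0.0617 to 0.0057, PRDX6 from -0.116 to 0.0166 and PTGER4 from -0.45 to 0.48; their causes were not tested. FADS1 also lost its call with DESeq2 (adjusted p = 0.0912), and PTGES passed with no filter on low counts (0.94). The other alternatives, DESeq2, other scalings, filterByExpr and the length correction included, kept the number of enzymes that were higher at 4 and lower at 1, except the filter of 1 count, with 5 higher. With 1 sample left out, 3 to 4 were higher and 1 was lower. Each group is 3 samples of 1 line, and PLA2G2A, PLA2G10, PTGES and the receptors rest on few reads.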

Other observations

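The genes whose log2 CPM ran most like that of an enzyme over the 6 samples are given as a description, with no test, since the difference between 2 groups of 3 alone gives many genes a high correlation. A high correlation does not mean a change of the same size. For PLA2G2F they were TVP23B (Pearson r 0.99954), APPL2 (0.99953) and A4GALT (0.99842), among 12831 genes. The log2 fold changes of these genes were 0.84, 0.27 and 0.80, against 3.53 for PLA2G2F. For PLA2G4A they were DUSP4 (0.99877), GINM1 (0.99841) and PBK (0.99841). For PTGS1 they were CMPK1 (0.99959), ZNF83 (0.99949) and FAM114A1 (0.99926). For PTGES, whose groups overlapped, they were NT5C3AP1 (0.99362), RPUSD2 (0.99002) and CNFN (0.98802).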
